A study of Triticum aestivum with 4 samples.

Results

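The 4 genes of the abscisic acid (ABA) response described here in wheat roots and leaves under drought are the ABA receptor RCAR1, the protein kinase OST1, the transcription factor gene HB-7 and the ABA-induced gene LTI65. Their members are isotigs, the assembled sequences that stand for single transcripts, whose best BLAST match at an E-value of 0.001 or lower was the Arabidopsis thaliana protein of that name. The rule found 23 isotigs of 51984, namely 15 of 32085 in roots and 8 of 19899 in leaves. These isotigs lie in 18 isogroups, the sets of isotigs that share assembled pieces, 10 in roots and 8 in leaves. Read counts took no part in the choice of isotigs, although the 4 genes were picked with earlier results of these data known.

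The plants were of MGS1 Aliança, a cultivar of bread wheat (Triticum aestivum), grown in a glasshouse with 3 plants in a pot and harvested when tillering, at 5 weeks of age. Control plants were watered for all 5 weeks at 100% of field capacity. Drought-stressed plants received water to 75% of field capacity during 2 weeks and then went 3 weeks without water, so that the level of watering differed between the groups before water was withheld. The plants of 1 pot were pooled, and roots and leaves gave 1 library for each condition, 4 libraries in all. No condition therefore had a replicate, and each test below compares 2 libraries for counting error only.

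ABA accumulates when a plant loses water. It binds receptors of the PYR/PYL/RCAR family, which then hold back the clade A protein phosphatases (PP2C). Kinases of the SnRK2 family, OST1 among them, are released from these phosphatases and activate transcription factors that switch on protective genes. In Arabidopsis, OST1 is known for closing stomata, HB-7 encodes a homeodomain-leucine zipper (HD-Zip) class I factor whose transcript rises with ABA and water deficit, and LTI65 (also RD29B) is a widely used reporter of ABA-driven transcription. Bread wheat is hexaploid, so that a single Arabidopsis gene usually has several wheat counterparts.

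How well each name fits its isotigs differed between the genes. Both RCAR1 isotigs, of 1196 bases in roots and 1171 bases in leaves, aligned with residues 20 to 186 of the 187 residues of RCAR1, and 131 of 168 aligned positions (77%) were identical in each. The 6 OST1 isotigs of roots were 66% to 84% identical to the 362 residues of OST1, and in isotig08111 and isotig08112 the alignment spanned the whole protein. The 3 OST1 isotigs of leaves were 60% to 91% identical, and the one at 60%, isotig05262 of 540 bases, aligned only with residues 264 to 329. Kinases of the SnRK2 family resemble each other, and 1 leaf isogroup held both isotig03858, matched to OST1, and isotig03859, matched to SNRK2.8.

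All 10 HB-7 isotigs aligned with a short stretch of that protein, between residues 24 and 126 of 258, at 63% to 67% identity. The stretch took up 25.6% to 39.9% of the protein, and the remaining residues found no counterpart in the alignment. The matches of LTI65 were the weakest of the 4 genes. The leaf isotig06036 was 23% identical over residues 200 to 596 of 619, with an E-value of 2e-06, and the root isotig05862 was 19% identical over residues 57 to 544, with an E-value exactly at the cutoff of 0.001. The 1 isotig just outside the cutoff, isotig05863 at an E-value of 0.004, belonged to the same root isogroup. For LTI65, and above all in roots, the name is thus that of the best match and not of an established wheat counterpart.

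**Figure D1:**
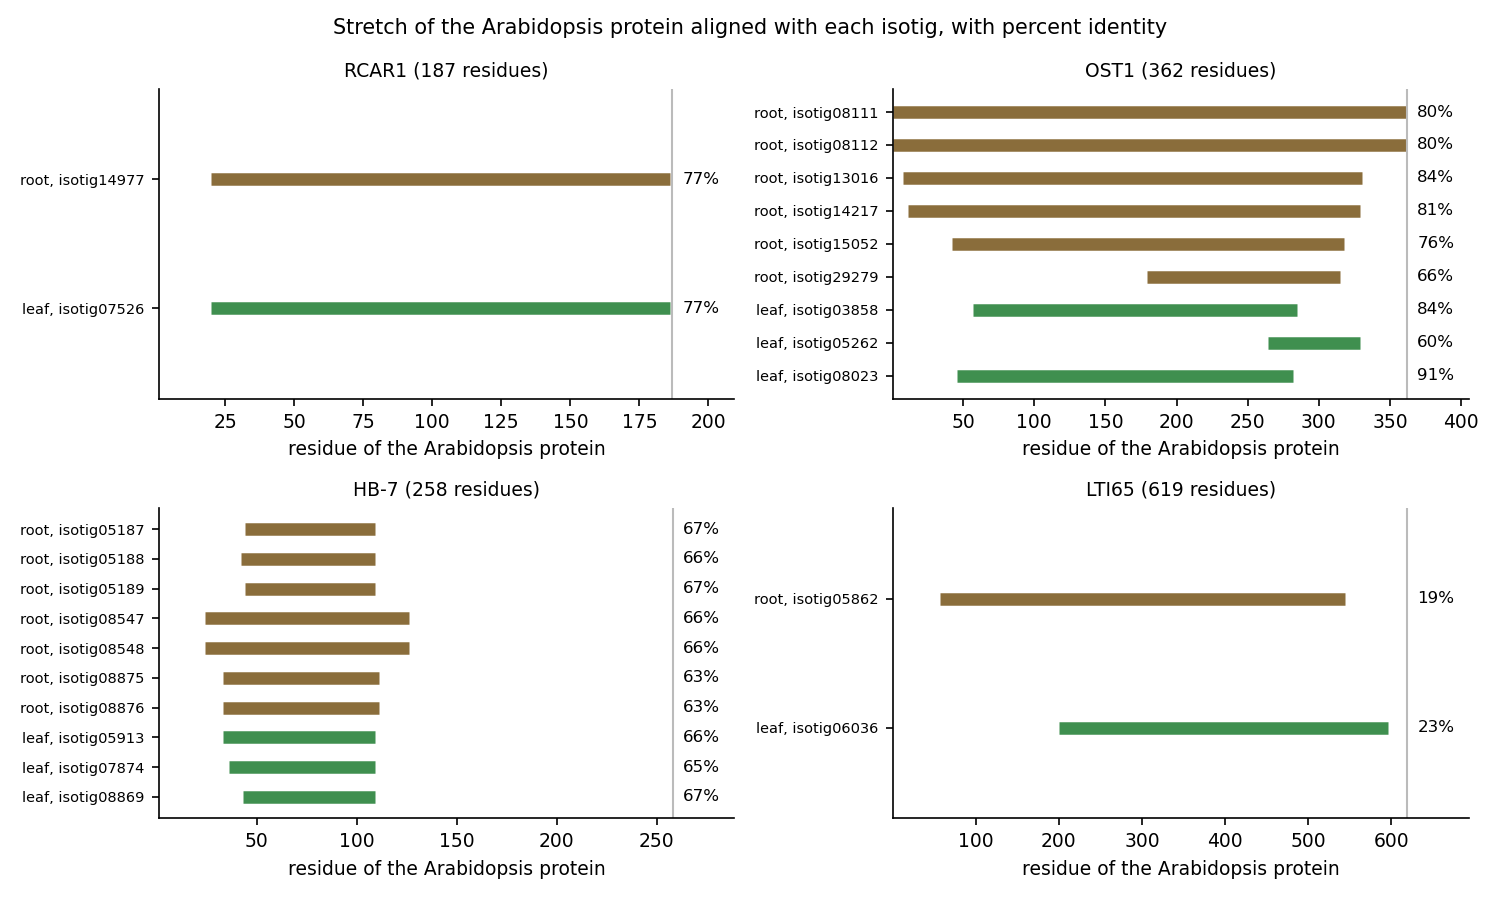
Stretch of each Arabidopsis protein aligned with each isotig. The horizontal axis gives the residue of the Arabidopsis protein, whose end is the grey line, each bar is 1 isotig (brown for roots, green for leaves), and the percentage is the share of identical positions. The RCAR1 and most OST1 bars span much of the protein, the 10 HB-7 bars lie between residues 24 and 126, and the LTI65 bars are long but only 19% and 23% identical.

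For tests of whole genes, the isotigs matched to 1 Arabidopsis gene were summed, with 1 isotig per isogroup, the one with most reads, because the deposited counts repeat the reads that isotigs of an isogroup share. This gave 9199 genes in roots, with 108532 control and 95923 drought reads, and 7012 genes in leaves, with 83357 and 62632. Root libraries held 5 of 10 root marker genes and 1 of 8 leaf marker genes, HEMA1, while leaf libraries held 7 leaf and no root marker genes. The summed reads of the root markers went from 41 in the control to 5 in the drought roots, and those of the leaf markers from 7982 to 1124 in leaves, most of them from RBCS1A, the Rubisco small subunit. Fewer cells of a type and less RNA per cell cannot be told apart in these pooled tissues, and the part of either in the results below was not tested. Among leaf genes with at least 10 reads the median log2 fold was 0.49, against 0.02 in roots, so that a leaf gene near 0.49 moved with the bulk of leaf genes.

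Drought went with more reads of OST1, HB-7 and LTI65, and not detectably of the receptor. By the MARS model of DEGseq, with a call at an unadjusted p under 0.001 and Benjamini-Hochberg adjusted p-values over all features of the tissue printed below, 3 of the 4 genes were up-regulated in roots (OST1, HB-7 and LTI65) and 2 of 4 in leaves (HB-7 and LTI65), and none was down-regulated. Of all root genes tested, 3.63% passed the threshold upwards and 5.16% downwards, and of all leaf genes 5.06% and 2.58%. Counts by isotig repeat the reads that isotigs of an isogroup share, as with isotig08111 and isotig08112, both called in roots. Counted so, 4 of 15 root isotigs were up-regulated, beside 3.39% of all root isotigs, and 5 of 8 leaf isotigs, beside 4.85% of all leaf isotigs. None was down-regulated, beside 5.13% of all root and 2.93% of all leaf isotigs. At an unadjusted p under 0.05, 11 root isotigs were higher under drought and 1, isotig14217 of OST1, was lower, and in leaves no further isotig passed. The share of all isotigs at that p was not computed, so that no excess can be read from the 11. Several of the 11 also share reads within an isogroup.

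**Figure D2:**
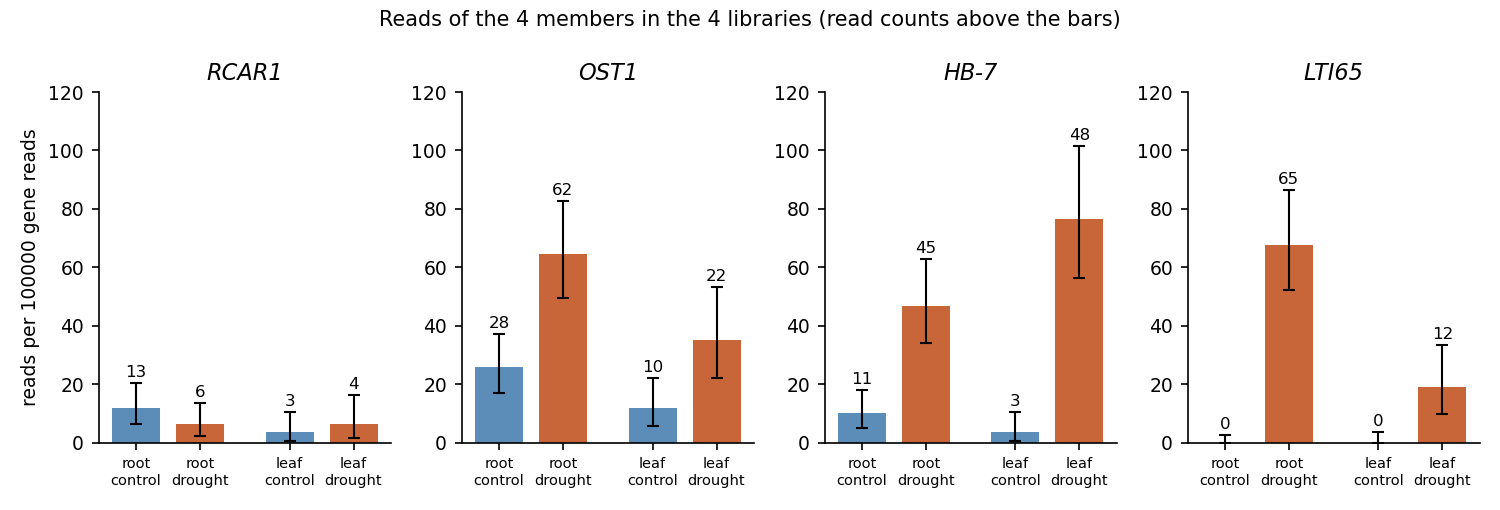
Reads of the 4 genes in the 4 libraries. The vertical axis gives reads per 100000 gene reads of the library, the bars are single libraries (blue for control, orange for drought), the lines are 95% exact Poisson intervals (for a count of 0, up to 3 reads), and the numbers are read counts. HB-7 and LTI65 stand higher in both drought libraries than in their controls, OST1 does so with control and drought intervals that just meet in leaves (5.75 to 22.1 and 22.0 to 53.2), and the RCAR1 intervals overlap throughout.

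RCAR1, the receptor also called PYL9, was the gene with the fewest reads. Its single root isotig, isotig14977, had 13 control and 6 drought reads, and its single leaf isotig, isotig07526, had 3 and 4. The count was lower under drought in roots and 1 read higher in leaves, and in neither tissue was the difference larger than counting error. In roots RCAR1 was 1.91-fold lower (95% interval from 6.14-fold lower to 1.47-fold higher, adjusted p = 0.441). In leaves it was 1.77-fold higher (0.300 to 12.1, adjusted p = 0.635), an interval wide enough to hold both a decrease and a large increase. Per kilobase of isotig and 100000 gene reads, the RCAR1 level was highest in control roots at 10.02 (5.33 to 17.1), followed by drought leaves at 5.45 (1.49 to 13.96), drought roots at 5.23 (1.92 to 11.4) and control leaves at 3.07 (0.634 to 8.98). No neighbours in that order were apart beyond their counting intervals.

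Of 14 receptor genes of the family, 4 were measured in roots and 2 in leaves, RCAR1 included, and none was up-regulated. PYL4, another ABA receptor, was down-regulated in roots, from 49 to 2 reads, a 21.7-fold lower value (5.68 to 184, adjusted p = 6.18e-10). In leaves PYL4 had 7 control reads and 0 under drought, which did not pass the threshold (adjusted p = 0.221). The median log2 fold of the measured receptors was -0.38 in roots, where all genes had a median of 0.09.

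OST1 had 28 reads in control and 62 in drought roots, summed over 5 isogroups, and 10 and 22 reads in control and drought leaves, summed over 3. In both tissues the drought library held more than the control. OST1 was up-regulated in roots, by 2.51-fold (1.58 to 4.07, adjusted p = 0.000561). In leaves it was 2.93-fold higher (1.33 to 6.93), a difference that did not pass the unadjusted threshold of 0.001 although its adjusted p = 0.0326. The root call was lost when the exact test of edgeR allowed a coefficient of variation of 0.2 between libraries (p = 0.0131).

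The OST1 isogroups did not move together. In roots isotig08111 rose from 2 to 28 reads (12.8-fold, 3.23 to 111, adjusted p = 2.10e-05), and isotig08112 of the same isogroup, which shares most of these reads, from 2 to 27. The reads of isotig15052 went from 0 in the control to 14 under drought (adjusted p = 0.00629). The other isogroups differed from these: isotig13016 had 12 and 15 reads (adjusted p = 0.864), isotig29279 had 0 and 2 (adjusted p = 0.768), and isotig14217 had 14 in the control and 3 under drought (0.196-fold, 0.0361 to 0.702), lower but short of the threshold (adjusted p = 0.0313). The OST1 increase in roots thus rested on 2 of the 5 isogroups, one of them aligned with the whole protein. In control roots isotig13016 and isotig14217 held 26 of the 28 reads, and in drought roots isotig08111 and isotig15052 held 42 of the 62.

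The OST1 isotigs of leaves were uneven too. There isotig03858 rose from 1 to 15 reads (21.6-fold, 3.33 to 911, adjusted p = 0.000354), isotig08023, at 91% the isotig most identical to OST1, had 5 and 7 reads (adjusted p = 0.556), and isotig05262 had 4 and 0 (adjusted p = 0.622). Only isotig03858 of the 3 was up-regulated, and its isogroup, which also holds the isotig matched to SNRK2.8 with 6 and 3 reads, had 6 control and 16 drought reads. Then 19 pairs of isogroups of the same gene and tissue were compared, after the reads had been seen. Each isogroup was represented by its matched isotig with most reads. Of the 19 pairs, 5 differed in their split of control and drought reads by Fisher's exact test, with p-values adjusted over the 19. All 5 were pairs of OST1. In roots isotig14217 differed from isotig08111 (adjusted p = 3.79e-06) and from isotig15052 (adjusted p = 3.29e-05), and isotig13016 differed from isotig08111 (adjusted p = 0.00714) and from isotig15052 (adjusted p = 0.0114). In leaves isotig03858 differed from isotig05262 (adjusted p = 0.00654). That test used the 1 and 15 reads of isotig03858, and the 6 and 16 reads of its whole isogroup were not tested. Whether these isogroups are counterparts of OST1 on different wheat genomes or other kinases of the family cannot be told from the matches.

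**Figure D3:**
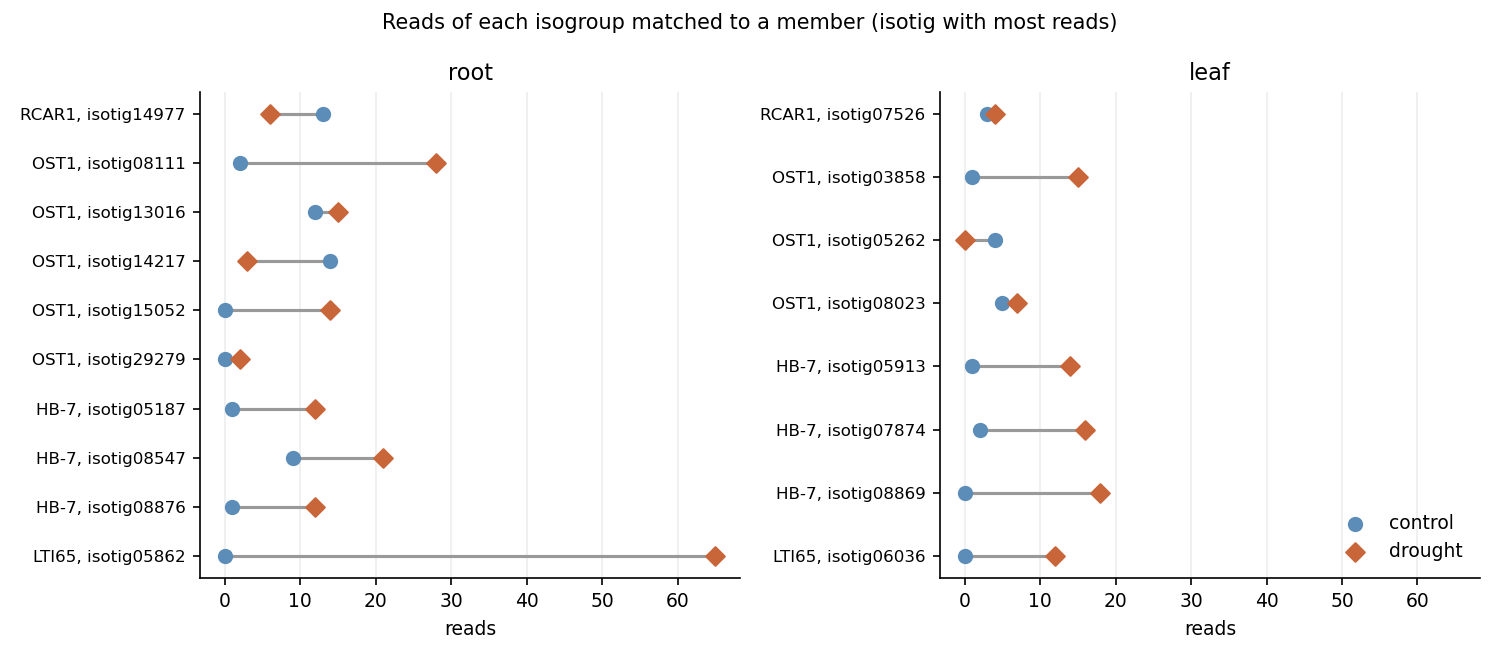
Reads of each isogroup matched to 1 of the 4 genes, as counted in its isotig with most reads among those matched. The horizontal axis gives reads in the control library (blue circles) and in the drought library (orange diamonds), with roots on the left and leaves on the right. The OST1 isogroups go both ways, with isotig14217 at 14 and 3 reads and isotig08111 at 2 and 28, while all 6 HB-7 isogroups have more reads under drought.

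Per kilobase and 100000 gene reads, the OST1 level was 50.9 (39.0 to 65.2) in drought roots, 31.5 (19.7 to 47.7) in drought leaves, 18.4 (12.2 to 26.6) in control roots and 15.5 (7.45 to 28.6) in control leaves. Each neighbouring pair in that order overlapped in its counting intervals. Roots and leaves were assembled apart, so that levels of the tissues are set side by side without a test.

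Calls among the other SnRK2 kinases went down in roots and up in leaves, while all calls among the clade A phosphatases went up. Of 10 SnRK2 genes, 3 were measured in roots, where OST1 was up-regulated and SNRK2.8 was down-regulated, from 26 to 4 reads (5.74-fold lower, 1.99 to 22.7, adjusted p = 0.00136). In leaves 4 were measured and 1 was up-regulated, SNRK2.4, from 3 to 53 reads (23.5-fold, 7.62 to 118, adjusted p = 1.77e-13). SNRK2.4 had 34 and 30 reads in roots. The clade A phosphatases, which inhibit OST1 in the absence of ABA, were up-regulated in 4 of 7 measured genes in roots and 5 of 6 in leaves, and none was down-regulated. In roots HAB1 rose from 6 to 38 reads (7.17-fold), HAI3 from 5 to 30 (6.79-fold) and HAB2 from 12 to 40 (3.77-fold). The HAB2 call in roots was lost in the isotig with most reads alone (log2 fold 0.62 in place of 1.92), and it and the SNRK2.8 call were lost in edgeR with a coefficient of variation of 0.2. In leaves the largest statistics were those of HAB2, from 6 to 92 reads (20.4-fold), HAB1, from 5 to 73 (19.4-fold), and HAI3, from 1 to 49 (65.2-fold, 11.2 to 2628). Of the genes listed as guard cell targets of OST1 in Arabidopsis, 3 of 6 were measured in roots and 4 in leaves, and 1 was up-regulated, the NADPH oxidase gene RBOHD in roots (44 and 79 reads, 2.03-fold, 1.39 to 3.01). The RBOHD call was lost with library reads, size factors or isotig column sums as the scale (log2 fold of 0.72 to 0.87 in place of 1.02), and in edgeR with a coefficient of variation of 0.2 or 0.4.

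HB-7 rose in both tissues, and each of its isogroups had more reads under drought than in the control. Summed over 3 isogroups each, HB-7 had 11 reads in control and 45 in drought roots, and 3 reads in control and 48 in drought leaves. Its lowest value was in control leaves and its highest, relative to the library, in drought leaves. HB-7 was up-regulated 4.63-fold in roots (2.36 to 9.92, adjusted p = 1.12e-05) and 21.3-fold in leaves (6.86 to 107, adjusted p = 4.99e-12). The root call was lost in the exact test of edgeR with a coefficient of variation of 0.4 between libraries (p = 0.0266), and when the isotig with most reads stood alone for the gene (log2 fold 1.34 in place of 2.21).

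With isotig column sums as totals, no single HB-7 isotig of roots passed the threshold. The nearest were isotig05187, isotig05188 and isotig08876, each at an unadjusted p of 0.00161 in the MARS model. With library reads or TMM as the scale, 7 root isotigs of the 4 genes were called in place of 4. The isogroup of isotig05187, isotig05188 and isotig05189 had 1 and 19 reads, that of isotig08547 and isotig08548 had 9 and 21, and that of isotig08875 and isotig08876 had 1 and 12. All 7 root isotigs had more reads under drought, with adjusted p-values from 0.0172 to 0.236. With column sums as totals, the call of the gene in roots thus came from the sum over isogroups. In leaves each of the 3 isotigs was called by itself: isotig05913 rose from 1 to 14 reads (adjusted p = 0.000692), isotig07874 from 2 to 16 (adjusted p = 0.000692) and isotig08869 from 0 to 18 (adjusted p = 4.81e-05). The split of reads between control and drought did not differ detectably among the HB-7 isogroups of a tissue, with a lowest unadjusted p of 0.237 in roots and of 0.455 in leaves, though each of these isogroups held fewer than 10 control reads.

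The HB-7 level per kilobase and 100000 gene reads was 65.5 (48.3 to 86.9) in drought leaves, 39.5 (28.8 to 52.9) in drought roots, 8.56 (4.27 to 15.3) in control roots and 2.85 (0.588 to 8.33) in control leaves. Drought roots and control roots were apart beyond their intervals, and the other neighbours overlapped. Of 16 HD-Zip class I genes, 4 were measured in roots and 3 in leaves, and HB-7 was the one up-regulated in each. Its name rests on best matches over a short stretch, and whether these isotigs stand for another gene of the class cannot be told from them. No gene of the class was down-regulated. Of the bZIP factors that bind ABA-responsive promoters, 4 of 9 were measured in roots and none passed the threshold, nor did any at an unadjusted p under 0.05. In leaves 3 were measured and 1 was up-regulated, GBF3, with 4 and 16 reads (5.32-fold, 1.72 to 21.9, adjusted p = 0.0105). The GBF3 call was lost with Fisher's exact test (p = 0.00103), in edgeR with a coefficient of variation of 0.2 or 0.4, in the isotig with most reads alone, and with library reads, TMM or size factors as the scale (log2 fold down to 1.84, with TMM, in place of 2.41).

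LTI65 had no read in either control library. Its root isotig had 0 control and 65 drought reads, and its leaf isotig 0 and 12. Every read of LTI65 thus came from a drought-stressed plant, and most from roots. With the control count of 0 taken as 3 reads, LTI65 was 24.5-fold higher in drought roots (adjusted p = 8.51e-16). In drought leaves it was 5.32-fold higher on that footing (adjusted p = 0.00402). Both folds leave out the counting error of the drought reads and are therefore not strict lower bounds. The whole root isogroup had 0 and 83 reads, and isotig05863, just outside the cutoff of the match, had 0 and 72. The leaf call was lost with a coefficient of variation of 0.4 in edgeR, with TMM-scaled library sizes (log2 fold, with 0 set to 1, of 3.43 in place of 4.00) and with median-of-ratios size factors (3.58). With an E-value of at most 1e-10 for the match, neither LTI65 isotig was kept.

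The LTI65 level per kilobase and 100000 gene reads was 31.9 (24.6 to 40.7) in drought roots, 11.6 (6.01 to 20.3) in drought leaves and 0 in both controls. The intervals of the drought libraries did not overlap, but the tissues were assembled apart and their levels were not tested against each other. Whether the root and leaf isotigs stand for the same wheat gene cannot be told from such weak matches. On the same scale per length, the levels in drought roots were 50.9 for OST1, 39.5 for HB-7, 31.9 for LTI65 and 5.23 for RCAR1. The counting intervals of OST1, HB-7 and LTI65 overlapped, and that of RCAR1 lay below them. The LTI65 level counts 65 of the 83 reads of its root isogroup. In drought leaves the levels were 65.5 for HB-7, 31.5 for OST1, 11.6 for LTI65 and 5.45 for RCAR1, with HB-7 apart from OST1 and the other neighbours overlapping.

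Of 21 genes listed here as ABA-induced, LTI65 among them, 9 were measured in roots and 10 in leaves. Whether ABA induced each of them was not tested. Apart from LTI65, 4 of 8 measured genes were up-regulated in roots, beside 3.63% of all root genes, and 7 of 9 in leaves, beside 5.06% of all leaf genes. None was down-regulated, beside 5.16% of all root and 2.58% of all leaf genes. In roots the up-regulated genes included ADH1, an alcohol dehydrogenase, with 9 and 66 reads (8.30-fold, 4.12 to 18.9), and P5CS1, which makes the proline precursor, with 5 and 53 (11.99-fold, 4.83 to 38.4). In leaves P5CS1 had 1 and 405 reads (539-fold, 96.2 to 21342), the dehydrin gene ERD10 had 44 and 233 (7.05-fold, 5.09 to 9.96) and ERD1, a chloroplast Clp protease component, had 18 and 82 (6.06-fold, 3.61 to 10.7). Over the 7 lists together, the 30 measured root genes other than the 4 described here held 9 up-regulated and 2 down-regulated genes, and the 28 leaf genes held 14 and none. The median log2 fold of all measured genes of these lists, with counts of 0 set to 1, was 1.44 in roots and 2.34 in leaves, beside 0.09 and 0.41 over all genes. With such a 0 taken as 3 reads, and a log2 fold of 0 where the other count was at most 3, it was 1.17 and 2.16. The lists were drawn up with earlier results of these libraries known.

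**Figure D4:**
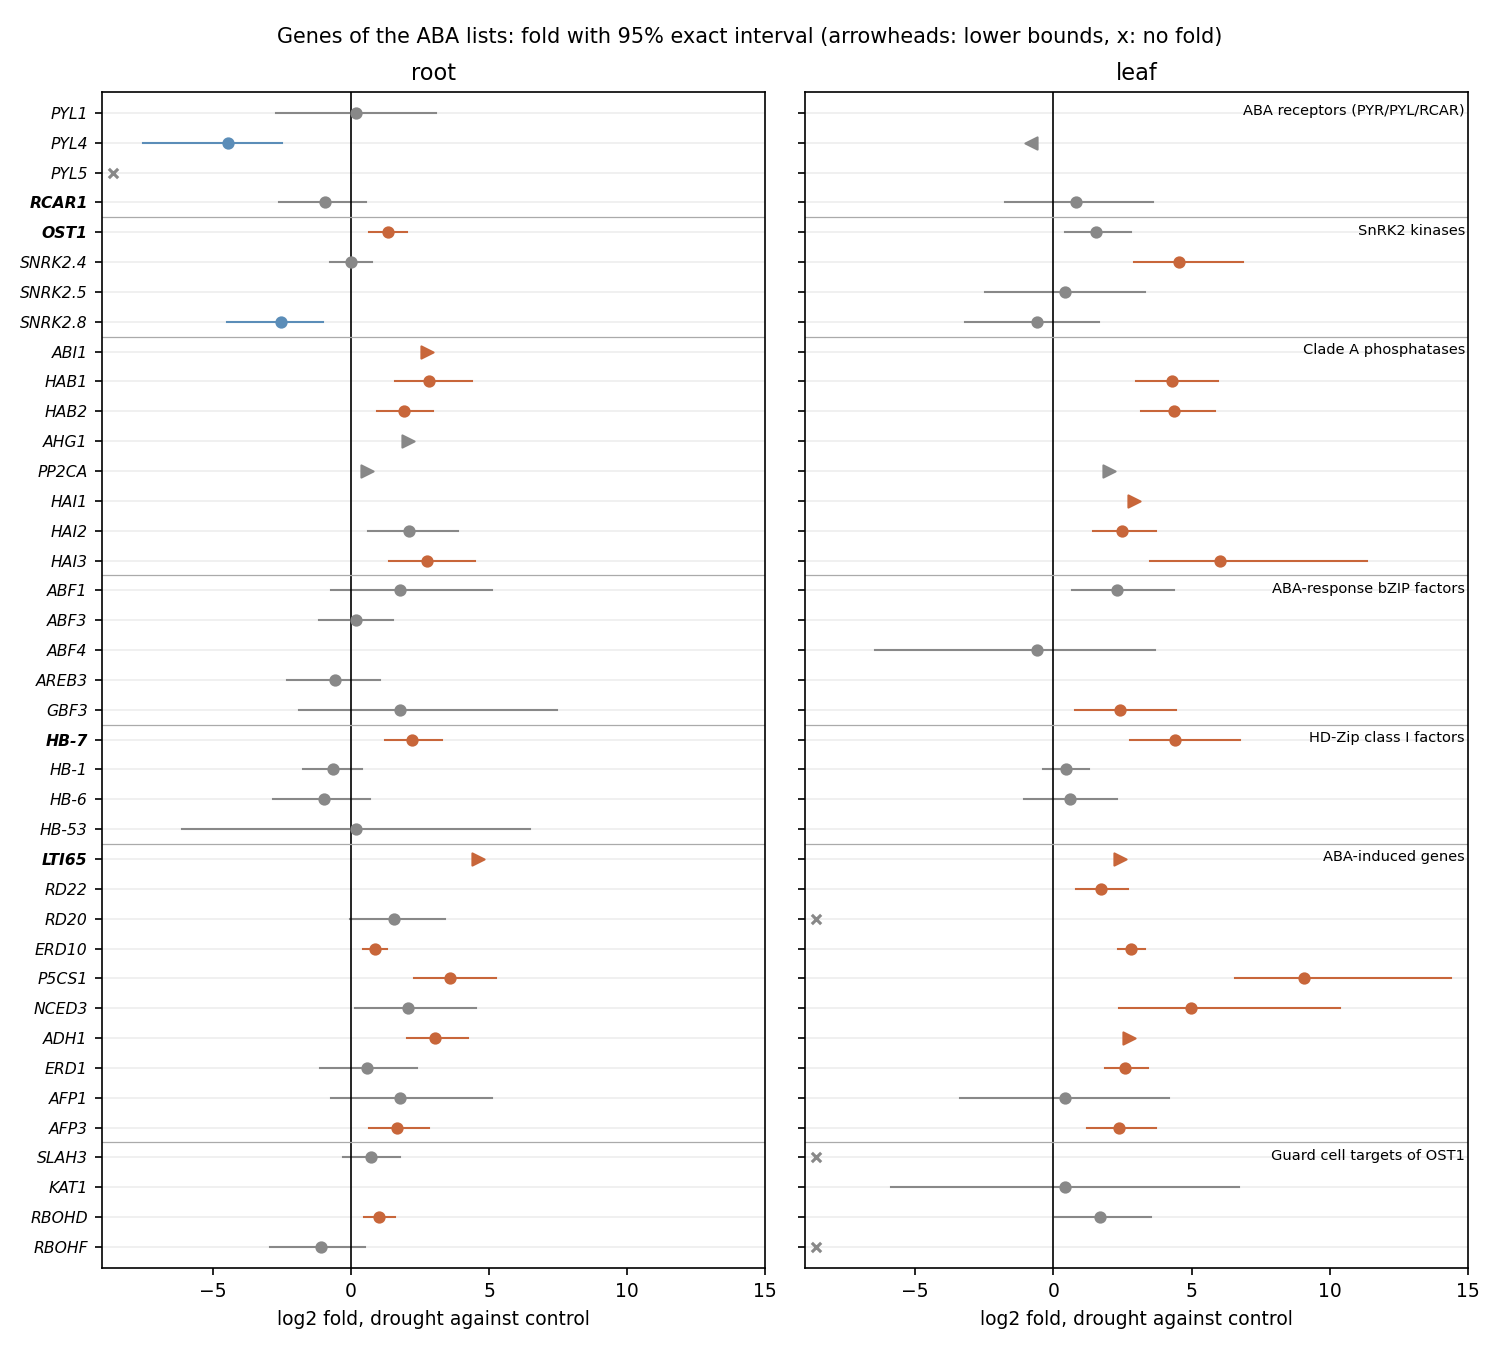
Drought against control for the measured genes of the 7 ABA lists, with RCAR1, OST1, HB-7 and LTI65 in bold. The horizontal axis gives the log2 fold with its 95% exact binomial interval, for roots (left) and leaves (right). Up-regulated genes are orange, down-regulated genes blue, and genes that did not pass p under 0.001 grey. Where 1 library had no read, arrowheads give the fold with that 0 taken as 3 reads, which is not a strict lower bound. A cross marks a gene with at most 3 reads in each library and none in one. In leaves the 16 called genes all lie to the right of 0, and in roots 12 lie to the right and 2, PYL4 and SNRK2.8, to the left.

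The drought effect of the 4 genes was then compared between the tissues, as the difference of the log2 folds of leaves and roots. This difference was 0.20 (-1.03 to 1.44, adjusted p = 0.892) for OST1, 1.65 (-0.77 to 4.08, adjusted p = 0.493) for RCAR1 and -2.16 (-7.88 to 3.57, adjusted p = 0.716) for LTI65, whose control counts of 0 leave it wide. For HB-7 it was 2.04 (0.22 to 3.86), with an unadjusted p of 0.0280 and an adjusted p of 0.222 over the 5500 genes read in both tissues. None of the 4 genes differed between the tissues at an adjusted p under 0.05, beside 4.15% of all genes, and the intervals allow sizeable differences for each. With all isotigs of a gene summed, which counts shared reads more than once, the HB-7 difference was 2.51 with an adjusted p of 0.0326. The 3 leaf isotigs of HB-7 lie in 3 isogroups, so that its leaf reads were the same in that sum and only the leaf totals changed. Its log2 fold went from 4.41 to 4.90 in leaves and stayed at 2.21 in roots. With library reads, TMM or size factors as the scale, the difference was 1.51 to 1.88 and did not pass.

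The genes most like each of the 4 in their reads over the 4 libraries were looked up among 3468 genes with at least 20 reads, by the Euclidean distance of the centred log2 of reads per 100000 gene reads plus 1. For RCAR1 the nearest was ARR9, at a distance of 0, since it had the same 13, 6, 3 and 4 reads in control roots, drought roots, control leaves and drought leaves. CAM7 followed at 0.0740 and SKD1 at 0.145. For OST1 the nearest were AL2 at 0.0755, AT1G11480 at 0.121 and KEG at 0.194, of which KEG had 14, 32, 4 and 10 reads. For HB-7 they were CYP71 at 0.395, FER4 at 0.497, with 7, 33, 2 and 23 reads, and MGT4 at 0.670. For LTI65 they were AT5G07330 at 0.256, with 0, 80, 0 and 12 reads, AT1G05510 at 0.613 and AT5G66780 at 0.675, all without a read in either control library. Each likeness rests on 4 libraries and on few reads, and is a description only.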

How the data were processed

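Pooled roots and leaves of control and drought-stressed wheat were sequenced on a Roche GS FLX Titanium, and the authors assembled the reads of each tissue with GS De Novo Assembler. They deposited read counts per isotig and isogroup, without normalization, with isotig lengths. For the best BLAST match, the bit score, E-value and percent identity were also deposited by the authors. Their own fold changes, z-scores and p-values were not used, nor were singletons. Libraries summed to 359899 and 393555 isotig reads in control and drought roots and 366382 and 253923 in leaves, where shared reads are repeated. The ratio of control to drought totals was 0.914 by isotig and 1.13 by gene in roots, and 1.44 and 1.33 in leaves. The same counts therefore give different folds by isotig and by gene. Genes of few reads have wide intervals.

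Isotig and gene counts of the libraries of a tissue were compared with the MARS model of DEGseq (two-sided, unadjusted p under 0.001, a count of 0 set to 1), rewritten with numpy 2.4.6, pandas 2.3.3 and scipy 1.17.1 (Python 3.11.15) and tested on simulated data. It was fitted over all features of the tissue, with column sums or gene sums as totals. Folds have exact binomial intervals of 95%, conditional on both counts, and levels have exact Poisson intervals. These cover counting error only. The tissue difference was tested by a z from the Poisson variance with 0.5 added to each count, adjusted by Benjamini-Hochberg over 5500 genes.

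Alternatives were a call at a Benjamini-Hochberg adjusted p under 0.05, Fisher's exact test, a coefficient of variation set to 0.2 or 0.4 in edgeR 4.0.16 (exact test), library reads stated by the study, TMM, size factors of DESeq2 1.42.0 (R 4.3.3), at least 10 reads, 0 set to 0.5, at least 2-fold, an E-value of at most 1e-10, and other ways to count isotigs. Isogroup reads, isotig column sums as totals of genes and the pairs of isogroups were added after seeing the data. The 4 genes and all gene lists were chosen with earlier results of these data known. Named besides them are, per list and tissue, at most 3 called genes with the largest absolute z, and for each of the 4 genes the 3 most alike. SNRK2.4 in roots and PYL4 in leaves are given because they were called in the other tissue. The isotigs carry no wheat gene identifier, so the available wheat gene table could not be joined, and no sequence is shown. Figures were drawn with matplotlib 3.10.9.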

Additional observations from a re-analysis of the deposited data

Results flagged for a closer look

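Among the 27 genes of the ABA lists read in both tissues, 4 had a drought effect that differed between leaves and roots at an adjusted p under 0.05, beside 4.15% of all 5500 genes, and RCAR1, OST1, HB-7 and LTI65 were not among them. The difference of the log2 folds, leaves minus roots, was 4.35 for SNRK2.4, a kinase of the same family as OST1 (adjusted p = 9.80e-05), which had 34 and 30 reads in control and drought roots and 3 and 53 in leaves. It was 5.03 for P5CS1 (adjusted p = 0.00867), 1.95 for ERD10 (adjusted p = 2.96e-07) and 2.37 for HAB2, a phosphatase that acts on OST1 (adjusted p = 0.0391). The difference of HAB2 was no longer past the threshold with the library reads stated by the study (2.21), TMM (1.84) or size factors (2.13). For ERD10, no isotig was kept with an E-value of at most 1e-10 for the match. P-values and intervals of these differences come from counting error in 4 single libraries.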

How the results depend on the processing

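No paired analysis was possible because each condition has 1 library. An assumed coefficient of variation of 0.4 (edgeR) left 1 of the 4 called root isotigs, 1 of 5 leaf isotigs, 1 of 3 root genes, 1 of 2 leaf genes, and in the ABA lists 2 of 14 root and 6 of 16 leaf genes; with 0.2, 8 root genes of the lists were called. Root isotigs called were 8 with Benjamini-Hochberg adjustment (7 up-regulated, 1 down-regulated) and 7 with library reads or TMM. Leaf genes called among the 4 were 1 with TMM, size factors or an E-value of at most 1e-10. With all isotigs summed, 1 of the 4 genes differed between tissues in place of 0. The OST1 tissue difference turned to -0.33 with TMM and -0.033 with size factors. Of the 19 pairs of isogroups, the 13 with at least 10 reads each held 4 of the 5 that differed.

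Scaling moved all leaf log2 folds by -0.32 (library reads), -0.57 (TMM) or -0.41 (size factors), and the called leaf genes from 355 up-regulated and 181 down-regulated to 238 and 250, 173 and 318, and 210 and 271. The root shifts were -0.15, -0.04 and -0.18. OST1 in leaves was called with adjustment, with all isotigs summed (log2 fold 2.04 in place of 1.55) and in isotig03858, its isotig with most reads, alone (4.24). Its 3 leaf isotigs lie in 3 isogroups, so that summing all isotigs left its reads unchanged and altered only the totals. With library reads (1.23), size factors (1.14) or TMM (0.98) its fold was smaller and not called. OST1 in roots was not called with isotig column sums as totals (1.02). Across 489 values of 41 named results, 424 kept direction and side of the threshold, 59 lost the call, 4 gained it and 2 reversed. The 424 include settings that could hardly undo a call, such as at least 10 reads (32 values), and do not measure how firm the calls are. With a coefficient of variation of 0.4 in edgeR, 11 values kept their side and 22 lost the call. Control counts of 0 to 13 reads limited every fold of RCAR1, HB-7 and LTI65.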
